A study of Mus musculus with 24 samples.

Results

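The effect of subchronic variable stress (SCVS) on mRNA in the nucleus accumbens (NAc) was examined over male and female mice together. All 12 mRNA libraries of the series entered the comparison, 6 from stressed and 6 from unstressed mice, out of 24 libraries of both RNA types. They were chosen by their labels, with sex as a covariate, so that a gene's change is an average over males and females. Each of the 4 groups (unstressed males, stressed males, unstressed females, stressed females) held 3 libraries, and each library pooled 10 NAc punches from 5 C57BL/6J mice, 9 weeks old by the labels and 8 weeks by the study's methods. Stressed mice received 6 days of SCVS, in which foot shock, tail suspension and restraint alternate, and were killed 24 h after the last stressor. Controls were unstressed, all groups shared the C57BL/6J background, and females were taken in estrus or proestrus. Because libraries were pools, p-values measure the spread between pools, not between single mice.

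The NAc is the ventral part of the striatum and receives dopamine from the midbrain and glutamate from cortex, hippocampus, amygdala and thalamus. Most of its neurons are medium spiny neurons, which use GABA and carry dopamine receptors. Stress hormones act on these cells through the glucocorticoid receptor, a transcription factor, neuronal firing induces immediate early genes, and secretory load induces chaperones of the endoplasmic reticulum (ER). The defining markers of medium spiny neurons were abundant: the summed level of 20 of them lay between 11830 and 14930 CPM (reads per 1000000 reads of the library, with totals scaled by TMM factors) in the 12 libraries. Libraries held 41076780 to 60867747 reads, and 18593 of 38293 genes had enough reads to be tested. Markers of cortical glutamatergic neurons stood apart between libraries: the summed level of 14 of them lay between 54.7 and 74.5 CPM in unstressed males, 99.7 and 270.9 CPM in stressed males, 72.5 and 461 CPM in unstressed females and 96.0 and 183.7 CPM in stressed females. Their level was thus higher in stressed than in unstressed males, and in females it was highest in 2 of the unstressed libraries. In bulk tissue, fewer cells of a type and less RNA per cell cannot be told apart.

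The sequences upstream of 3 genes are shown first because their genes carry the results on the circadian clock and on ER chaperones. *Ciart*, named *Gm129* in the annotation of the files, encodes a repressor of the circadian clock. Its promoter held 3 copies of the E-box, the element bound by the clock activators CLOCK and BMAL1. *Hspa5* encodes BiP, the main chaperone of the ER, and *Pdia6* a protein disulfide isomerase of the ER. Both promoters held CCAAT followed after 9 bases by CCACG, the pattern of the ER stress element. Sequences are from RefSeq, build GRCm38.p6, run 5′ to 3′ on the strand of the gene, and cover 250 bases before to 50 after the start; capitals mark the E-boxes in the first and the CCAAT and CCACG parts in the others.
*Ciart*, chr3:95882179-95882478, minus strand: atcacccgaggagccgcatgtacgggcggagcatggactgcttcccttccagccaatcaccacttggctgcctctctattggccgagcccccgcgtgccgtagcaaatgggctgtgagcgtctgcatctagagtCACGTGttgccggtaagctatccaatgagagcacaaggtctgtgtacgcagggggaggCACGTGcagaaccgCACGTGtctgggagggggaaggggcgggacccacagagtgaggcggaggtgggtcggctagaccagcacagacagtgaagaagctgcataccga
*Hspa5*, chr2:34771840-34772139, plus strand: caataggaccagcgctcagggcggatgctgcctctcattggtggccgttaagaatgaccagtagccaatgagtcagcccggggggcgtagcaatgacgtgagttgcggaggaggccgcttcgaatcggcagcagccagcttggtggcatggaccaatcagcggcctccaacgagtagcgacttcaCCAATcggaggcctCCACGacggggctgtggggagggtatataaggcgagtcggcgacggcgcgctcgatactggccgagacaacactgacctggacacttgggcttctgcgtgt
*Pdia6*, chr12:17266339-17266638, plus strand: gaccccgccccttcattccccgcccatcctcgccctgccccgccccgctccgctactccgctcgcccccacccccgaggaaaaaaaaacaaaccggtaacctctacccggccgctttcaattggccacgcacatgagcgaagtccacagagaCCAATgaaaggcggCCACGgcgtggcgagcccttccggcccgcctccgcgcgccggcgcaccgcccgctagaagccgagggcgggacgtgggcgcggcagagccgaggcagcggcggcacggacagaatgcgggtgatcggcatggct

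Over all 12 libraries, genes regulated by SCVS were more often downregulated than upregulated. A gene was taken as regulated at an unadjusted p under 0.05 (limma) and a fold change of at least 1.3, the study's thresholds. By these, 586 genes (3.15% of those tested) were regulated, of which 161 (0.866%) were upregulated and 425 (2.29%) downregulated. The downregulated share was 72.5%, and it was 52.8% when libraries were scaled by quantile normalization and 80.9% by library size only, so that the excess of downregulated genes depends on the scaling. No gene had an adjusted p under 0.05 in the main fit, with sex and stress as terms, by limma or by edgeR. The smallest limma value, 0.0867, was shared by 20 genes, and 3225 genes had an unadjusted p under 0.05 at any fold. DESeq2's Wald test gave 344 genes with an adjusted p under 0.05. Limma gave 190 with library quality weights. For the mean of both sexes' effects, in a limma fit with 1 mean per group, there were 93. With 1 library left out, the limma count at an adjusted p under 0.05 was 113 without unstressed female replicate 2, 16 without stressed female replicate 1, and 1 without unstressed male replicate 1 or stressed female replicate 2. Genes with few reads were frequent among the regulated genes: 121 (20.6%) had a mean under 10 reads, compared to 5.48% of tested genes.

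The fit averages both sexes, so that a shared sign, seen in 574 of the 586 genes, was nearly fixed by how they were chosen. Tests within each sex, with 3 libraries per group, do not show whether the size of a change differed. An unadjusted p under 0.05 was reached in males alone for 300 genes, in females alone for 79, in neither for 144 and in both, with the same sign, for 63. The change was larger in males for 435 of the 586. For 75 of them the stress effect differed between the sexes at an unadjusted interaction p under 0.05 (limma). Over all 18593 tested genes this held for 1775. *Banp*, which encodes a nuclear matrix and DNA binding protein, was the only one of the 586 with an adjusted interaction p under 0.05: its level was 23.4, 26.3 and 27.1 CPM in unstressed males and 11.2, 11.5 and 14.2 CPM in stressed males, but 16.1, 20.8 and 21.3 CPM in unstressed females and 21.3, 19.4 and 18.9 CPM in stressed females. Across all tested genes, the change in males and the change in females correlated with a Pearson r of 0.0971; genes are not independent replicates and share libraries, and no p is given.

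**Figure D1:**
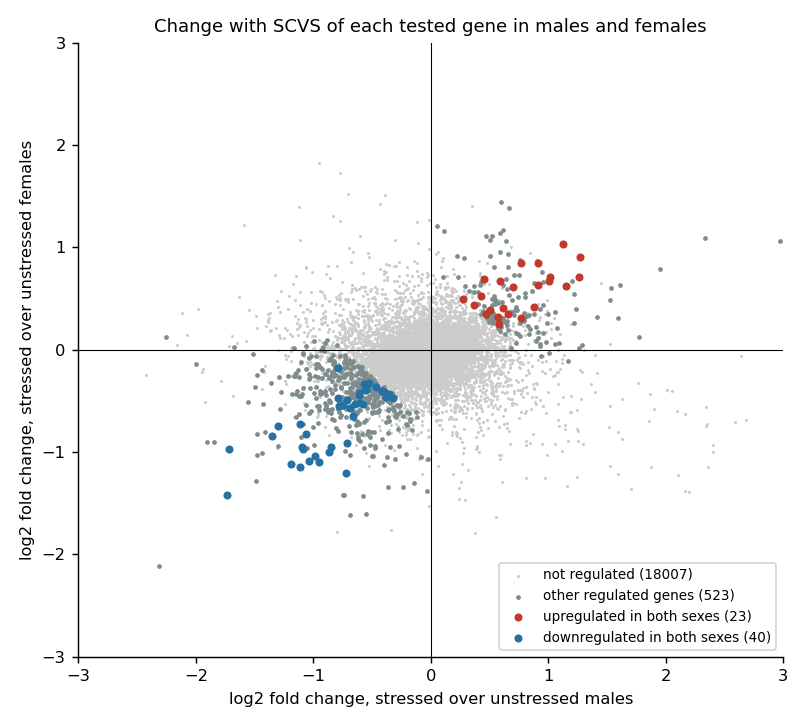
Log2 fold change with SCVS of each tested gene in males (horizontal axis) and females (vertical axis); red and blue points are the 23 genes upregulated and 40 genes downregulated in both sexes, dark grey points the other regulated genes and light grey points the rest. The colored genes lie in the lower left and upper right quadrants by definition, the cloud as a whole shows little slope (Pearson r 0.0971), and 5 genes lie outside the plotted range.

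The 63 genes regulated over all libraries and with an unadjusted p under 0.05 in each sex were 0.339% of the tested genes. Of them 23 (0.124%) were upregulated and 40 (0.215%) downregulated, 56 had a gene symbol and 45 were annotated as protein coding. The median absolute log2 fold change was 0.71 in males and 0.55 in females, and the change was larger in males for 45 genes. In 39 of the 63, the 3 stressed libraries lay wholly above or wholly below the 3 unstressed libraries within each sex. The 63 were chosen by tests on these same libraries, so that separation was made likely by the choice. Over all tested genes, 160 (0.861%) were separated in this way with the stressed libraries higher and 162 (0.871%) with the stressed libraries lower, and 69 of these 322 were regulated. The membership of the 63 was sensitive to single libraries: 111 genes met the same criteria without stressed male replicate 3, 101 without unstressed female replicate 2, 37 without unstressed female replicate 3 and 29 without stressed female replicate 3. Without the 3 libraries with the most reads of cortical markers (stressed male replicate 3 and unstressed female replicates 1 and 3), 106 genes met them, of which 16 were among the 63; this leaves 1 unstressed female library, which limma assumes to vary like the others.

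Among the genes upregulated in both sexes, *Gpr139* and *Syt2* encode proteins of the neuronal membrane and the synapse. *Gpr139*, an orphan G protein-coupled receptor, had 0.494, 0.386 and 0.276 CPM in unstressed males, 0.755, 0.744 and 0.665 CPM in stressed males, 0.361, 0.660 and 0.489 CPM in unstressed females and 0.678, 0.978 and 1.14 CPM in stressed females. Within each sex the stressed libraries lay above the unstressed ones, with a log2 fold change of 0.88 (SE 0.19, adjusted p = 0.132, limma), and *Gpr139* had the largest increase of the upregulated genes with a symbol and a mean of at least 10 reads, although it averaged only 30.8 reads. *Syt2*, a fast calcium sensor for transmitter release, had 28.9, 27.3 and 25.8 CPM in unstressed males and 45.3, 43.4 and 40.9 CPM in stressed males. In females *Syt2* had 30.9, 42.9 and 37.2 CPM without stress and 39.7, 46.3 and 56.0 CPM with stress, so that the groups were apart in males and overlapped in females (log2 fold change 0.50, SE 0.09, adjusted p = 0.0867, limma). *Myo3b*, an unconventional myosin with a kinase domain, went from 9.54–12.4 CPM in the 6 unstressed to 12.8–16.8 CPM in the 6 stressed libraries without any overlap (log2 fold change 0.41 over all libraries), with a log2 fold change of 0.44 in females and 0.37 in males.

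Other upregulated genes encode proteins of metabolism and of the cell interior. *Micalcl*, which encodes a MICAL-like protein with no enzymatic domain, had 1.04, 1.16 and 1.05 CPM in unstressed males, 1.96, 1.79 and 2.26 CPM in stressed males, 1.38, 1.42 and 1.44 CPM in unstressed females and 2.03, 2.00 and 1.64 CPM in stressed females. No stressed library overlapped with the unstressed ones of its sex (log2 fold change 0.64, SE 0.11, adjusted p = 0.0867, limma). *Nmnat3*, which makes NAD in mitochondria, had 5.59–6.12 CPM in unstressed males and 7.997–9.49 CPM in stressed males, and 5.76–6.47 CPM in unstressed females and 6.99–7.34 CPM in stressed females, a log2 fold change of 0.42. *Fmo2*, a monooxygenase, rose by 0.49 and *Tdrd1*, a germline gene of the piRNA pathway, by 0.52 on the log2 scale.

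Further upregulated genes had few reads. *Cybb*, the catalytic subunit of the phagocyte NADPH oxidase, had a log2 fold change of 0.63 at a mean of 19.0 reads, and *Slamf9*, a receptor of the SLAM family on myeloid cells, one of 0.66 at 23.9 reads. Stressed libraries of both genes were higher within each sex. *Mb*, which encodes myoglobin, had a log2 fold change of 0.81 at 11.6 reads, with overlap between stressed and unstressed libraries in males. *Cldn26*, a claudin, had one of 0.81, with overlap in females. Also upregulated in both sexes were *Mdfi*, an inhibitor of myogenic transcription factors, by 0.58, and the noncoding *BB031773* by 0.45. The log2 fold changes of the other upregulated genes with a symbol lay between 0.39 and 1.10, from *AA986860* to *Wbp2nl*.

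**Figure D2:**
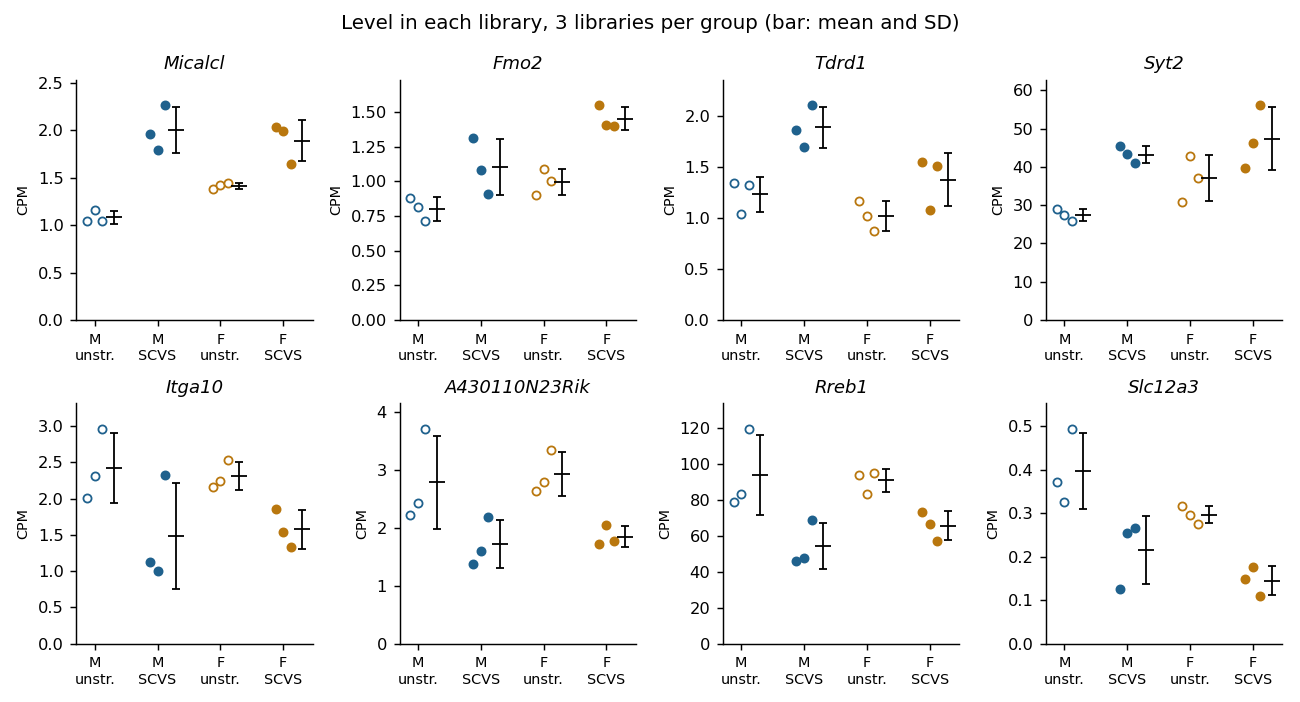
Levels in CPM of 8 genes regulated in both sexes, with 1 point per library (open, unstressed; filled, SCVS; blue, males; orange, females) and the mean and SD of the 3 libraries of each group. *Micalcl*, *Fmo2*, *Tdrd1* and *Syt2* are higher and *Itga10*, *A430110N23Rik*, *Rreb1* and *Slc12a3* lower after SCVS, with overlap between the groups of a sex only for *Tdrd1* and *Syt2* in females and *Itga10* in males.

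The downregulated genes included transcription factors and signaling molecules known from development. *Rreb1*, a zinc finger protein downstream of RAS, had 78.7, 82.9 and 119 CPM in unstressed males and 45.8, 47.6 and 68.7 CPM in stressed males. In females *Rreb1* had 93.8, 83.3 and 95.0 CPM without stress and 73.1, 66.5 and 57.1 CPM with stress. Each stressed library was below every unstressed one of its sex, with a log2 fold change of -0.63 (SE 0.12, adjusted p = 0.0867, limma). *Zbtb7c*, a zinc finger repressor, had the smallest unadjusted p of all genes (8.3e-06; log2 fold change -0.52, SE 0.08, adjusted p = 0.0867, limma), and its level fell from 19.9–20.4 to 12.8–13.7 CPM in males and from 18.1–21.1 to 11.7–17.4 CPM in females. *Tbx3*, a T-box factor, had a log2 fold change of -0.41. Among secreted factors *Fgf10* fell by 0.46, *Slit2*, an axon guidance cue, by 0.40 and *Mstn*, which encodes myostatin, by 0.65 on the log2 scale. *Fgf10* and *Slit2* overlapped between stressed and unstressed females, whereas *Mstn*, at a mean of 24 reads, did not.

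Several of the downregulated genes encode membrane proteins; no list of these was tested. *Slc12a3*, the thiazide-sensitive sodium chloride cotransporter, had 0.371, 0.325 and 0.493 CPM in unstressed males, 0.126, 0.255 and 0.266 CPM in stressed males, 0.316, 0.297 and 0.276 CPM in unstressed females and 0.148, 0.176 and 0.109 CPM in stressed females. All 6 stressed libraries lay below all 6 unstressed ones (log2 fold change -0.92, SE 0.21, adjusted p = 0.135, limma), at a mean of only 13.1 reads. *Wnk4*, a kinase that regulates this cotransporter in the kidney, was among the genes upregulated in both sexes (log2 fold change 0.44). Its stressed and unstressed libraries overlapped in each sex, and it met the criteria in 4 of 12 fits with 1 library left out. A link between the 2 genes was not tested. *Itga10*, an integrin alpha subunit for collagen, had 2.01–2.96 CPM in unstressed males and 0.999–2.33 CPM in stressed males, with 1 stressed library inside the unstressed range, and 2.16–2.53 and 1.33–1.86 CPM in females without overlap (log2 fold change -0.66). *Pcdh12*, an endothelial protocadherin, had a log2 fold change of -0.79, and *Clcn1*, a chloride channel, one of -0.40. *A430110N23Rik*, a protein coding gene of unknown role, had 2.22, 2.44 and 3.71 CPM in unstressed males and 1.38, 1.60 and 2.19 CPM in stressed males, and 2.64, 2.79 and 3.36 CPM in unstressed females and 1.72, 2.05 and 1.77 CPM in stressed females. Its change was nearly equal in the sexes (log2 fold change -0.66 in males and -0.65 in females).

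Genes of antigen presentation were found among the downregulated genes as well. *Ciita*, the coactivator that switches on MHC class II genes, had 1.58–1.68 CPM in unstressed males and 0.999–1.24 CPM in stressed males, and 1.60–1.78 CPM in unstressed females and 1.10–1.66 CPM in stressed females (log2 fold change -0.47). The MHC class Ib genes *H2-Q7* and *H2-Q10* fell by 0.52 and 1.13 on the log2 scale, at a mean of only 35.4 and 10.9 reads. Their stressed and unstressed libraries of each sex did not overlap. These 2 genes are near-identical members of 1 family, so that reads may be split between them. *Il18bp*, which encodes a secreted inhibitor of interleukin-18, had a log2 fold change of -0.43. Of the 17 tested genes of the interferon response and MHC class I list, which holds none of these 4, none met the thresholds; *B2m* was higher (log2 fold change 0.11) and *H2-K1* (-0.13) and *Tap1* (-0.25) were lower at an unadjusted p under 0.05, and *Ifi27l1* (-0.12) was not.

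Of the remaining downregulated genes, *Gm14372* had the largest decrease among those with a mean of at least 10 reads (log2 fold change -1.57), followed by *1700064E03Rik* (-1.16); both are noncoding and averaged 10.3 reads. *4930562C15Rik* (-0.92), the noncoding *Gm16333* (-0.90) and *Srms* (-0.63), a non-receptor tyrosine kinase, were covered by 14.2 to 21.7 reads. Stressed and unstressed libraries of each sex did not overlap for *Gm14372*, *1700064E03Rik*, *4930562C15Rik* and *Srms*, and did for *Gm16333*. *Hspa5* was the most abundant of the 63 genes, at a mean of 16300 reads. Among the unnamed genes, ENSMUSG00000097684 and ENSMUSG00000097806 had log2 fold changes of 0.98 and 0.88 and the same mean of 118.8 reads, so that they may share reads. When the call was repeated under 12 other processing settings and after dropping each of the 12 libraries in turn, 7 genes met it every time. They were *Gpr139*, *Micalcl*, *Zbtb7c*, *A430110N23Rik* and 3 unnamed genes, among them both just given, and of the 7 only *A430110N23Rik* also met it without the 3 libraries with the most reads of cortical markers. *Nmnat3* and *Rreb1* missed it with 1 library left out.

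Promoters of 38 of the 56 genes with a symbol were in the RefSeq table, with 53 promoters in all. AGAACA, 1 arm of the glucocorticoid response element, was found on either strand in 14 of the 53 (26.4%, from 12 genes) and in 19.0% of all 32851 promoters. The E-box CACGTG was found in 7 (13.2%, from 6 genes) and in 7.15%. The heat shock core GAANNTTC was found in 2 (3.77%) and in 7.86%, and the cAMP response element TGACGTCA in 0 and 1.79%. These shares rest on few promoters and were not compared by a test. Promoters of 1 gene overlap each other, and a match is a description of the sequence, not a binding site.

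Neuronal activity induces the immediate early genes. Of 19 tested genes 8 were downregulated and none upregulated, against 2.29% downregulated among all genes, and 11 had a lower level at an unadjusted p under 0.05 at any fold, against 9.5% of all genes. The median log2 fold change was -0.40 (-0.50 in males and -0.25 in females), compared to -0.01 over all genes, and 17 of 19 had the same sign in both sexes. The 8 were *Fos*, *Fosb*, *Fosl2*, *Egr2*, *Npas4*, *Nr4a1*, *Nr4a3* and *Arc*; all except *Arc*, which encodes a synaptic protein, encode transcription factors. *Fosl2*, a partner of Jun proteins, had 55.0, 70.4 and 66.1 CPM in unstressed males and 36.4, 36.0 and 35.0 CPM in stressed males, and 46.0, 42.0 and 59.7 CPM in unstressed females and 51.8, 37.8 and 34.5 CPM in stressed females. Its groups were apart in males and overlapped in females (log2 fold change -0.54, SE 0.12, adjusted p = 0.135, limma). *Egr2*, a zinc finger factor, had 9.50, 12.4 and 11.9 CPM in unstressed males and 7.02, 7.44 and 5.45 CPM in stressed males, and 7.51, 8.43 and 11.4 CPM in unstressed females and 8.98, 5.26 and 7.28 CPM in stressed females, again apart in males and overlapping in females (-0.56). *Fosb* (-0.39) had a log2 fold change of -0.73 in males and -0.07 in females, and *Npas4* (-0.56) one of -0.50 in males and -0.62 in females. *Egr1* (-0.24) was lower at an unadjusted p of 0.0062 without reaching the fold threshold. *Homer1* had a log2 fold change of 0.01, and *Nr4a2* and *Bdnf* differed in sign between males (2.16 and 1.90) and females (-0.62 and -0.58). The median of the cortical markers had the same signs, and the part of cortical tissue in the changes of these 2 genes was not tested. None of the 19 was regulated with an unadjusted p under 0.05 in both sexes.

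The number of downregulated immediate early genes moved with the libraries and settings used. It was 4 without unstressed male replicate 2, unstressed male replicate 3 or stressed male replicate 3, and 5 without unstressed female replicate 3 or with library quality weights. It was 10 with edgeR and 11 without unstressed male replicate 1 or stressed female replicate 3. Without the 3 libraries with the most reads of cortical markers, 3 were downregulated and 2 upregulated, at a median of -0.33. With the cortical marker level as a covariate 8 were downregulated, at a median of -0.40.

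Of 20 tested genes for ER chaperones and the unfolded protein response 3 (*Hspa5*, *Sdf2l1* and *Pdia4*) were downregulated, against 2.29% of all genes, and none was upregulated. At any fold 12 were lower at an unadjusted p under 0.05, against 9.5% of all genes, and 8 did not reach that p. The median log2 fold change was -0.14 (-0.23 in males and -0.08 in females). *Hspa5* had 434, 463 and 391.5 CPM in unstressed males and 262, 252 and 230 CPM in stressed males, and 306, 355 and 366 CPM in unstressed females and 321, 284 and 300 CPM in stressed females. The groups were far apart in males and overlapped in females (log2 fold change -0.79 and -0.18; adjusted p = 0.12 for the difference between the sexes, limma), although both sexes had a p under 0.05. *Sdf2l1*, an ER chaperone partner, had a log2 fold change of -0.63 (-1.03 in males and -0.27 in females). *Pdia6* had 126, 122 and 111 CPM in unstressed males and 93.8, 92.0 and 87.7 CPM in stressed males, and 102, 106 and 106 CPM in unstressed females and 101, 92.9 and 97.1 CPM in stressed females. It was lower in every stressed library than in each unstressed library of its sex, at a change (-0.26, SE 0.05, adjusted p = 0.105, limma) under the fold threshold. *Xbp1*, which encodes a transcription factor that induces ER chaperones, had a log2 fold change of -0.33 (unadjusted p = 0.00037, limma). *Atf4* (-0.04) and *Ddit3* (-0.07), of another arm of the response, were not lower at p under 0.05. The pattern CCAAT, 9 bases, CCACG shown in the *Hspa5* and *Pdia6* promoters was found in 8 of the 18 promoters of this list in the table (44.4%) and in 0.119% of all promoters; it was added after the values of the genes were seen. Of the 8 genes with it, *Hspa5*, *Pdia6*, *Creld2*, *Syvn1* and *Calr* were lower at p under 0.05, and *Canx* (0.04), *Hsp90b1* (-0.04) and *Dnajc3* (-0.10) were not. In the whole list 12 of 20 genes were lower at that p, and the promoter of the downregulated *Pdia4* did not hold the pattern. Whether genes with and without the pattern differed in their change was not tested.

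**Figure D3:**
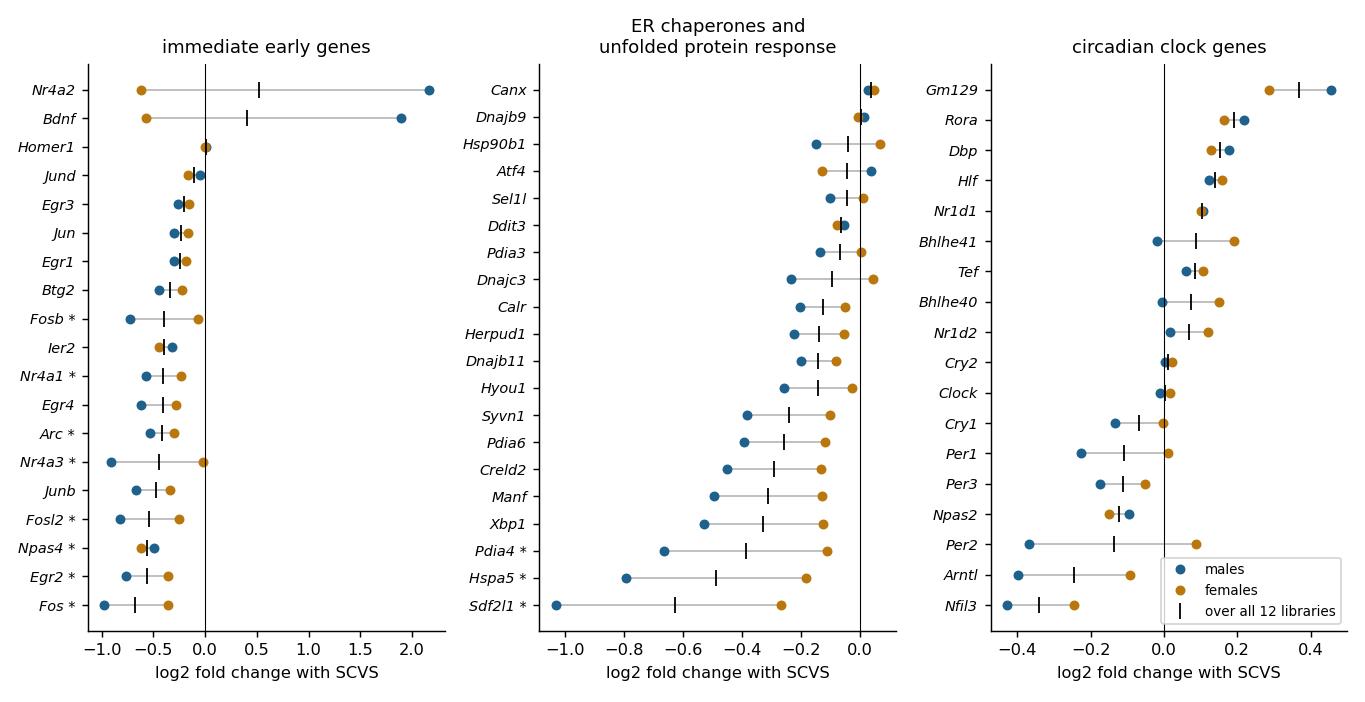
Log2 fold change with SCVS of the tested genes of 3 lists, in males (blue), in females (orange) and over all 12 libraries (black bar); an asterisk marks a gene that met the thresholds over all libraries. Most immediate early genes and ER chaperones lie left of 0 in both sexes and mostly farther left in males, and the clock genes lie on both sides, with *Gm129* (*Ciart*) highest and *Nfil3* lowest.

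Clock genes differed by small amounts, mostly with the same sign in both sexes (13 of 18 tested genes). None of them met the fold threshold, while 6 were higher and 3 lower at an unadjusted p under 0.05, against 7.84% and 9.5% of all genes. *Gm129* (*Ciart*) had 13.6, 11.9 and 12.0 CPM in unstressed males and 17.7, 16.5 and 17.4 CPM in stressed males, and 13.7, 15.1 and 13.4 CPM in unstressed females and 17.9, 15.7 and 18.1 CPM in stressed females. All 6 stressed libraries lay above all 6 unstressed ones, and the log2 fold change of 0.37 (SE 0.06, adjusted p = 0.0867, limma) was just under the threshold of 0.379. *Rora*, an activator of *Arntl*, had 41.2–45.0 CPM in unstressed males and 49.1–52.1 CPM in stressed males, and 42.7–47.6 CPM in unstressed females and 48.6–51.6 CPM in stressed females, without overlap (0.19). *Nfil3*, a repressor of the same D-box sites that DBP activates, had 5.86–6.41 CPM in unstressed males and 4.05–5.29 CPM in stressed males, and 4.68–5.63 CPM in unstressed females and 4.02–4.36 CPM in stressed females, also without overlap (-0.34). The D-box activators *Dbp* (0.15), *Hlf* (0.14) and *Tef* (0.08) and the repressor *Nr1d1* (0.10) were higher, and *Arntl* (-0.25), which encodes BMAL1, and *Npas2* (-0.12), which encodes a paralog of CLOCK, lower, at an unadjusted p under 0.05. Each of these 9 genes had the same sign in males and females, which their choice by a fit over both sexes made likely. *Per1* (-0.11), *Per2* (-0.14), *Per3* (-0.11), *Cry1* (-0.07), *Cry2* (0.01) and *Clock* (0.00) did not reach it. E-boxes were present in 5 of the 16 clock genes with a promoter in the table, in 28.6% of their promoters against 7.15% of all promoters. Of the 5, *Ciart* and *Tef* were higher at an unadjusted p under 0.05, and *Bhlhe41*, *Cry1* and *Per1* did not reach it. The hour of the day at which each group was killed is not given in the sources used here. Its part in the differences of the clock genes was not tested.

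Among glucocorticoid target genes *Sgk1*, a kinase induced by corticosterone, had the smallest p-value. Its level was 73.7, 69.4 and 72.4 CPM in unstressed males and 89.0, 83.3 and 86.2 CPM in stressed males, and 68.7, 77.2 and 70.7 CPM in unstressed females and 112, 84.8 and 91.0 CPM in stressed females. All stressed libraries lay above all unstressed ones (log2 fold change 0.33, SE 0.06, adjusted p = 0.0867, limma), a change under the fold threshold. Of the 27 tested genes none was upregulated and 2, *Irs2* (-0.46; -0.82 in males and -0.14 in females) and *Lcn2* (-2.23, at a mean of 15.1 reads), were downregulated, against 2.29% of all genes. Downregulated genes numbered 4 without stressed female replicate 1 or with quality weights, and 1 with genes of at least 10 reads in every library. At any fold 5 were higher and 3 lower at an unadjusted p under 0.05, against 7.84% and 9.5% of all genes. The transcription factor *Klf9* (0.16), *Angptl4* (0.34), *Nfkbia* (0.13) and *Errfi1* (0.12) were higher and *Pdk4* (-0.26; -0.51 in males and -0.01 in females) lower at an unadjusted p under 0.05. The classical targets *Fkbp5* (0.08) and *Tsc22d3* (-0.04) were not, and *Tsc22d3*, which encodes GILZ, went in opposite directions in males (-0.40) and females (0.31; adjusted p = 0.0328 for the difference, limma). The median of the list was -0.05.

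Heat shock chaperones had a median log2 fold change of -0.10, with -0.22 in males and 0.04 in females, and only 5 of 20 had the same sign in both sexes. *Hspa1b* (-0.84) and *Hspb1* (-0.39) were downregulated, both with larger changes in males (-1.995 and -0.90) than in females (-0.14 and 0.06); *Hspa1b* has a near-identical copy, *Hspa1a*, so that its reads are uncertain. Downregulated genes numbered 2 of 20, against 2.29% of all genes. There was 1 without unstressed male replicates 2 or 3, any stressed male replicate or unstressed female replicate 3. With DESeq2 size factors, quality weights or the cortical covariate there was also 1. With edgeR, DESeq2's Wald test, library size only or at least 10 reads in every library there were 3. Leaving out unstressed female replicate 1 or 2 or stressed female replicate 2 or 3 also gave 3. Their regulator *Hsf1* was lower in both sexes, with 28.0, 30.1 and 37.3 CPM in unstressed males and 23.7, 20.7 and 26.9 CPM in stressed males, and 31.7, 33.7 and 35.3 CPM in unstressed females and 29.0, 28.5 and 28.0 CPM in stressed females. The groups of each sex did not overlap (log2 fold change -0.32, unadjusted p = 0.00059), under the fold threshold. *Ahsa1* (-0.10) and *Chordc1* (-0.30), co-chaperones of HSP90, were lower at an unadjusted p under 0.05, where *Chordc1* had -0.59 in males and -0.003 in females (adjusted p = 0.0328 for the difference, limma).

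**Figure D4:**
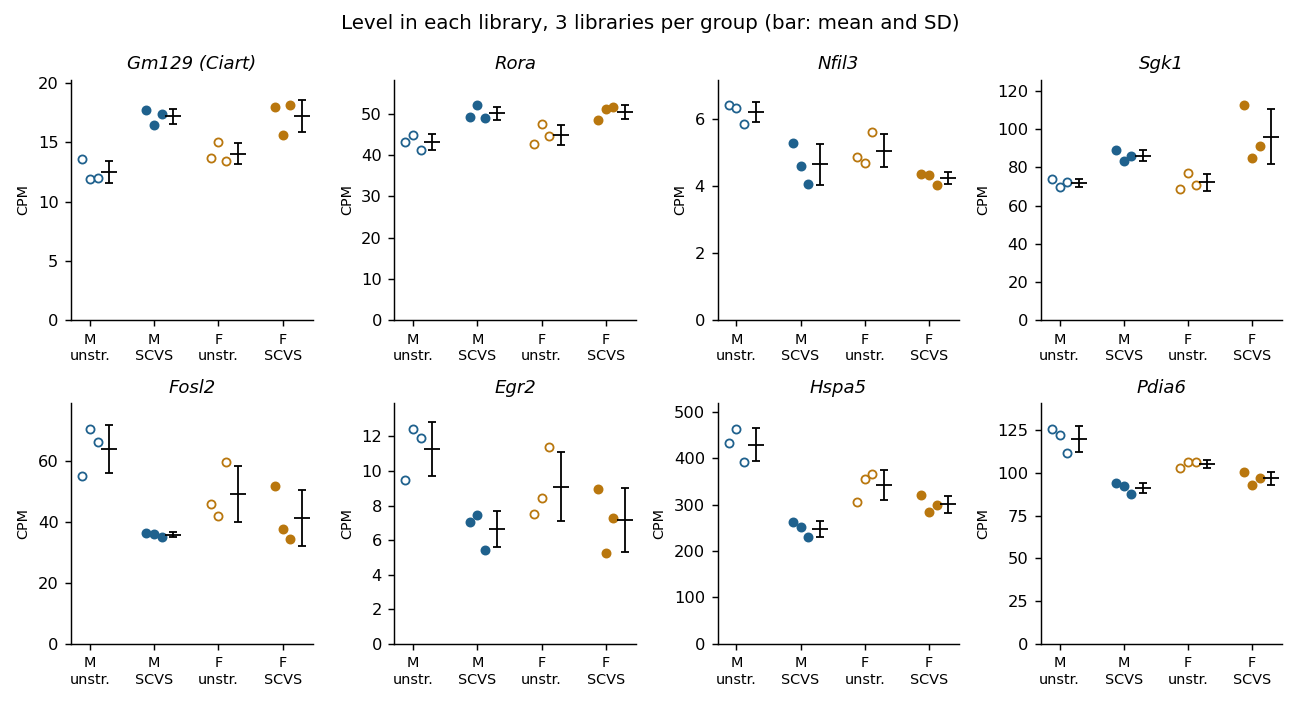
Levels in CPM of 8 genes from the lists, with 1 point per library (open, unstressed; filled, SCVS; blue, males; orange, females) and the mean and SD of the 3 libraries of each group. Stressed libraries lie above the unstressed ones of their sex for *Gm129* (*Ciart*), *Rora* and *Sgk1* and below them for *Nfil3* and *Pdia6*, and for *Fosl2*, *Egr2* and *Hspa5* they lie below in males and overlap in females.

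Genes of the mitochondrial genome, oxidative phosphorylation and ribosomes showed differences under the fold threshold. All 12 tested genes encoded by the mitochondrial genome were higher at an unadjusted p under 0.05, against 7.84% of all genes, with a median log2 fold change of 0.22 (0.33 in males and 0.10 in females), and none reached the fold threshold. *mt-Co1*, a subunit of cytochrome c oxidase, had 23970, 23670 and 20720 CPM in unstressed males and 29250, 29160 and 26060 CPM in stressed males, and 23830, 22580 and 20670 CPM in unstressed females and 24240, 24410 and 24610 CPM in stressed females. Its stressed libraries lay above the unstressed ones of each sex. These transcripts are the most abundant in the libraries, and quantile normalization, which gives equal ranks equal values, left a median of 0.01. *mt-Nd6* and *mt-Atp6* had a log2 fold change of 0.24 and *mt-Nd5* one of 0.22. Of 72 nuclear subunits of oxidative phosphorylation 22 were higher and none lower at an unadjusted p under 0.05 (median 0.08; *Cox6c* 0.19, *Ndufb9* 0.14, *Cox7b* 0.16 and *Cox5b* 0.14), and of 78 cytosolic ribosomal proteins 17 were higher and 1 lower (median 0.08; *Rpl37a* 0.15, *Rpl17* 0.17, *Rps7* 0.15 and *Rps28* 0.11). No gene of these lists met the fold threshold.

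Signaling genes of neurons were mostly level. Over all tested genes, 0.866% were upregulated and 2.29% downregulated, and 7.84% were higher and 9.5% lower at an unadjusted p under 0.05. The counts of neuropeptides and receptor subunits at that p were near or below the latter shares. *Cartpt*, which encodes the CART peptide, was the one downregulated neuropeptide of 17 (log2 fold change -0.49; -0.81 in males and -0.18 in females), *Tac2* (-0.33) was lower and *Penk* (0.15) higher at an unadjusted p under 0.05, *Trh* (0.21) was not, and the median was 0.00. Of 27 subunits of glutamate and GABA-A receptors *Grik3* (-0.16) and *Gabra2* (-0.15) were lower at that p, *Gabra4* (0.12) and *Grik4* (-0.09) were not, and none met the thresholds (median 0.01). Of 21 cholesterol biosynthesis genes 1 had a p under 0.05 (median 0.03), and *Sc5d* (0.08), *Dhcr7* (-0.09) and *Insig1* (0.11) did not. Among markers of striatal interneurons *Pvalb*, the calcium buffer of fast-spiking cells, was upregulated (0.63) and *Calb2*, which encodes calretinin, downregulated (-0.47), and *Th* (0.16) and *Slc5a7* (0.09) did not meet p under 0.05 (median of 11 genes 0.05). *Pvalb* had 1.54–2.46 CPM in unstressed males and 3.08–4.52 CPM in stressed males without overlap, and overlapped in females (2.11–4.82 and 3.22–5.54 CPM). It was no longer upregulated at p under 0.05 without unstressed female replicate 2 (log2 fold change 0.45). *Calb2* no longer met the fold threshold without stressed female replicate 1 (log2 fold change -0.36).

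Marker genes of other cell types moved by small amounts. All 13 microglial markers were higher, 8 of them at an unadjusted p under 0.05 (against 7.84% of all genes, as for the counts of higher markers below, and 9.5% for lower ones), with a median log2 fold change of 0.15 (0.16 in males and 0.15 in females) and none past the fold threshold. *P2ry12* (0.27), *Ctss* (0.26) and *Aif1* (0.34) were among the 8, and the summed level of the 13 was 433–476 CPM in unstressed and 466–550 CPM in stressed libraries. *Cybb* and *Slamf9*, given above, are genes of myeloid cells, and the part of the microglial level in their change was not tested. Markers of medium spiny neurons had a median of 0.10, with 6 higher (among them *Rasd2* 0.23, *Pde1b* 0.15 and *Adcy5* 0.12) and *Drd3* (-0.18) lower at p under 0.05. For myelin 7 of 14 were higher at that p (median 0.11; *Mobp* 0.17, *Ugt8a* 0.12 and *Mog* 0.15), and for astrocytes 4 of 12 were higher (*Slc4a4* 0.10, *S100b* 0.15, *Slc1a2* 0.16 and *Aldoc* 0.10) and *Gjb6* (-0.33) lower (median 0.04). None of these marker genes reached the fold threshold.

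Vascular and blood markers were mixed. Of 15 endothelial markers *Slco1a4* (0.18) and *Slc16a1* (0.13) were higher and *Cldn5* (-0.36), a tight junction protein, and *Kdr* (-0.21) lower at an unadjusted p under 0.05 (median 0.00). Of 11 mural markers *Tagln* (0.32) was higher at that p, and *Rgs5* (0.08), *Cspg4* (-0.07) and *Kcnj8* (-0.08) were not different (median 0.00). Meningeal fibroblast markers had a median of 0.02, with *Slc22a6* upregulated (0.55, at a mean of 26.3 reads), *Col1a2* (-0.30) lower at p under 0.05, and *Dcn* (0.11) and *Ogn* (0.12) not. Among 7 erythroid markers *Epb4.2* was downregulated (-0.53, at 16.2 reads), and *Hba-a1* (0.36) and *Hbb-b1* (0.32) were higher at p under 0.05, with 0.72 and 0.74 in males and -0.01 and -0.08 in females (adjusted p = 0.199 and 0.105 for the difference between the sexes, limma), while *Hbb-b2* (0.33) did not reach it; these globin genes have near-identical copies. *Epb4.2* was no longer downregulated with DESeq2 or without unstressed male replicates 1 or 2, stressed male replicate 1, unstressed female replicate 3 or stressed female replicates 1 or 3, where its log2 fold change lay between -0.51 and -0.40. It was also not downregulated with a replicate block within each sex. Without the 3 libraries with the most reads of cortical markers its log2 fold change was -0.55. No choroid plexus marker of 12 had a p under 0.05 (median -0.22; *Ttr* -1.72, *Tmem72* -0.33, *Clic6* 0.09 and *Otx2* -0.20). The median was -0.07 without unstressed male replicate 1, which held 66.1 CPM of *Ttr* against 0.616 to 2.49 CPM in the other unstressed libraries.

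The cortical glutamatergic markers showed no shared change: none of 14 had an unadjusted p under 0.05 over all libraries, and the median log2 fold change of 0.27 combined 2.47 in males with -0.62 in females. That median moved with single libraries: it was -0.17 without unstressed female replicate 2, 0.825 without unstressed female replicate 1 and 1.10, with 5 upregulated genes, without unstressed female replicate 3. It was 0.00 without stressed male replicate 3, and 1.58, with 10 upregulated genes, without the 3 libraries with the most reads of these markers. *Slc17a7*, the cortical vesicular glutamate transporter, had a log2 fold change of 3.29 in males and -1.03 in females, while *Slc17a6* (0.58 and 0.49) and *Cux2* (-0.20 and -0.04) had the same sign in both, and *Nrn1* (2.64 and -0.06) did not. With the mean level of these markers as a covariate, 585 genes were regulated by SCVS over all libraries and 43 met the criteria in both sexes, 26 of them among the 63. The part of cortical tissue in the other results was not tested further.

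**Figure D5:**
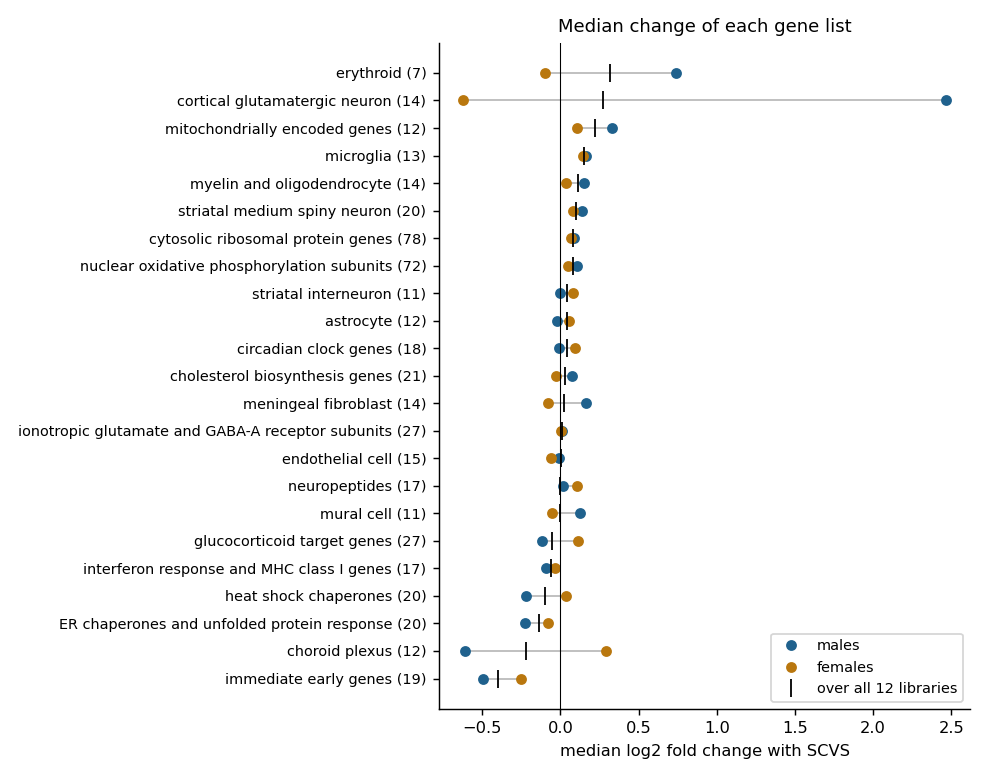
Median log2 fold change with SCVS over the tested genes of each list (number of genes in parentheses), in males (blue), in females (orange) and over all 12 libraries (black bar). The immediate early genes are lowest over all libraries (-0.40) with both sexes below 0, and the cortical markers have the widest split, 2.47 in males and -0.62 in females.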

How the data were processed

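mRNA from the NAc was measured in 12 libraries, 3 per group, each a pool of 5 mice. The authors aligned paired reads of TruSeq libraries to NCBIM37 (Ensembl annotation) by TopHat2 and deposited raw read counts per gene from HTSeq; the strand setting is not given in the sources used here. Symbols and coordinates came from the GENCODE annotation of NCBIM37 and matched 17795 of 18593 tested genes. Tested genes exceeded 5 reads in 80% or more of any group's libraries; counts were scaled by TMM factors, passed through voom and fitted with limma 3.58.1 (R 4.3.3), with sex and stress as terms. A fit with 1 mean per group gave the effect in each sex and their difference. P-values were adjusted over all tested genes by the Benjamini-Hochberg method, and SD and SE are over or from libraries. The steps were tested on simulated data. Totals of 41076780 to 60867747 reads give genes near 10 reads little precision.

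Named genes were the 12 with the largest change in each direction among genes regulated the same way in both sexes with a symbol and a mean of at least 10 reads, the 4 genes of each list with the smallest p, the 6 largest in each direction with an adjusted p under 0.05 (there were none), and the 4 regulated genes with the smallest interaction p (*Banp*, *Fam198b*, *Hspa5* and *Cbln4*); further members of a list, and other genes of the 63, were named after their values were seen. The libraries, gene lists and tests were chosen with earlier results of these data known. Alternatives were edgeR 4.0.16, DESeq2 1.42.0, other scalings, filters, weights and blocks, a cortical marker covariate and leaving out libraries. Small RNA libraries were not used here, and some genes that the rule names are not reported here. Plots used matplotlib.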

Additional observations from a re-analysis of the deposited data

Results flagged for a closer look

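In 284 groups of 6 libraries (stressed or unstressed, for each named gene and each summed list), 15 (5.28%) had a library whose gap to the next was above Dixon's critical value for 6; chance flags about 5% of groups. Among genes regulated in both sexes these were *Cldn26*, with 1.59 CPM in stressed female replicate 3 and 0.924 CPM in unstressed female replicate 2; *Cybb*, with 0.723 CPM in stressed male replicate 2; *1700064E03Rik* (0.552 CPM), *H2-Q10* (0.434 CPM) and *4930562C15Rik* (0.848 CPM), all in unstressed male replicate 3; and *Srms*, with 0.496 CPM in unstressed female replicate 1. The level of *Sgk1* was 112.4 CPM and that of *Fosl2* 51.8 CPM in stressed female replicate 1, above 91.0 and 37.8 CPM in the next stressed library. *Adcy5* had 1701 CPM in unstressed female replicate 2. *Ttr*, the main transcript of the choroid plexus, had 66.1 CPM in unstressed male replicate 1 and 2.62 CPM in stressed male replicate 2, and the summed choroid plexus markers had 116 CPM in unstressed male replicate 1, against 36.9 to 46.0 CPM in the other unstressed libraries. The sums of heat shock chaperones (4138 CPM) and of ER chaperones (2171 CPM) were low in stressed male replicate 3, against 4561 to 4748 and 2397 to 2484 CPM in the other stressed libraries. That library also held the highest cortical marker level among the stressed libraries, 270.9 CPM, and the part of it in these sums was not tested.

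The stress effect differed between the sexes at an adjusted interaction p under 0.05 (limma) for 5 of the tested genes, with 1775 at an unadjusted p under 0.05. The log2 fold change in females exceeded that in males by 1.10 for *Banp*, 0.59 for *Chordc1*, 0.71 for *Tsc22d3*, 0.74 for *Slc5a3*, an inositol transporter, and 0.57 for *Cables1*. *Fam198b* (1.17 in males and -0.11 in females) and *Cbln4* (-0.80 and 0.05), a secreted synapse organizer, had the next smallest interaction p-values among regulated genes apart from *Hspa5*, without passing adjustment.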

How the results depend on the processing

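The number of regulated genes (586) was 1072 with every gene of at least 1 read in any library, 347 with at least 10 reads in every library, 3225 without a minimum fold, 0 with the adjusted p, 992 without the 3 libraries with the most reads of cortical markers (added after the data were seen), and 402 to 710 with 1 library left out. Adjusted p-values under 0.05 (none in the main limma fit) numbered 344 with DESeq2. With limma they numbered 190 with library quality weights and 0 to 113 with 1 library left out. For the mean of both sexes' effects in the 4-group limma fit (added) there were 93. The 63 genes numbered 29 to 111 with 1 library left out, 195 without a minimum fold, 40 with DESeq2, 95 with genes of at least 1 read, 141 with quality weights and 106 without the 3 libraries. Separated genes numbered 368 to 929 with 1 library fewer, where separation is easier. Genes whose effect differed between the sexes (5) numbered 135 with DESeq2, 15 with quality weights, 0 with the cortical covariate or without the 3 libraries, and 0 to 199 with 1 library left out (199 without unstressed female replicate 2).

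No label ties same-numbered libraries of a sex to each other; their deviations correlated between 0.006 and 0.345 over 6 pairs, above 0.1 in 3, and, as a hint from the data and not the design, 8 of 12 libraries correlated best with their own number. With a replicate block within each sex 594 genes were regulated, 107 in both sexes, and 102 effects differed between the sexes; with a block shared by both sexes these were 629, 91 and 9.

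Of 119 named genes, *mt-Nd5* changed sign, to -0.0102, with quantile normalization. Among the scalings, list medians changed sign for cholesterol genes (-0.005), receptor subunits (-0.0259), endothelial (-0.0307) and meningeal (-0.015) markers with library size only, and for neuropeptides (0.0082 and 0.0156) and mural markers (0.0074 and 0.0265) with DESeq2 size factors and quantile normalization. With 1 library left out, medians also changed sign for glucocorticoid targets (0.0094 without stressed male replicate 2), cortical (-0.1674), astrocyte (-0.0019) and interneuron (-0.0141) markers (without unstressed female replicate 2; interneuron markers also, at -0.0045, without stressed female replicate 3), and for the 6 lists above, whose medians lay within 0.03 of 0. Genes under 10 reads are limited by depth.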
